A study of Mus musculus with 26 samples.

Results

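Collagen genes were examined across the cell types of mouse retinal pigment epithelium (RPE) and choroid, the vascular and connective tissue layer behind the retina. All genes whose symbol consists of Col, a number, the letter a and a number were taken from the single-cell count table, which gave 41 of its 16426 genes. The 2 single-cell libraries were made from RPE/choroid of 3-month-old B6129PF1/J and C57BL/6J mice, with tissue from a female and a male eye pooled per strain, enzymatically digested and sorted for live nucleated cells. Their cells carry the study's 13 cluster numbers, which it assigned to RPE (cluster 1), endothelial cells or ECs (clusters 2 to 4), stromal cells (clusters 5 to 8), smooth muscle cells (cluster 9), melanocytes (cluster 10), Schwann cells (12 and 13) and hematopoietic cells (11). The cells counted per cluster here differ in number from those the study reported. The same genes were read in bulk RPE/choroid of 6-month-old C57BL/6J mice that were wild type for Ihh (Ihh+/+) or lacked Ihh in ECs (IhhiΔEC/iΔEC), 3 libraries each. By the study's methods both genotypes carried a tamoxifen-inducible Cre under the EC promoter of Cdh5, which drove the deletion where Ihh was floxed. Both had received tamoxifen 12 weeks before sacrifice. They were also read in choroidal GLI1+ cells, the hedgehog-responsive stromal cells, which had been sorted from pooled female Gli1GFP/+ mice, expanded over passages and serum-starved. The labels give the strain as SWR/J, and by the study's methods that line had been crossed to BALB/c and intercrossed, which leaves a mixed background. These cultures were treated for 24 h with 100 nM SAG, an agonist of Smoothened, or with the solvent DMSO, in 3 libraries each. Endothelial cells sorted from neural retina, lung, liver and heart of 1-month-old B6129PF1/J mice complete the series.

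Collagens are secreted proteins in which 3 alpha chains wind into a triple helix. Most collagen genes encode 1 such chain, and the chains of a heterotrimer are assembled within the cell that makes them. Fibrillar collagens form the tensile fibrils of stroma and sclera, collagen IV forms the sheet of basement membranes, collagen VI forms beaded filaments near cells, and FACIT collagens decorate fibrils. In the choroid, Bruch's membrane lies between RPE and choriocapillaris and holds the basement membranes of both, with collagen layers between them. Collagen VIII is a short-chain collagen that builds hexagonal lattices, best known from Descemet's membrane of the cornea.

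Levels in single cells are UMIs (unique molecular identifiers, each counted as 1 RNA molecule) of a gene summed over the cells of a cluster, per 10,000 UMIs of all genes. The chemistry reads transcript ends, so that a UMI count does not scale with transcript length. How evenly the ends of different genes are captured was not tested, and ratios between chains are ratios of UMIs. Unless said otherwise, pairs of values give B6129PF1/J first and C57BL/6J second. The libraries held 3637 and 3928 cells, 17168578 and 15230413 UMIs in total and a median of 3881 and 3174.5 UMIs per cell. They shared 22 cell barcodes. Of 31 defining markers of the 7 cell classes, 30 were highest in a cluster of their own class in each library, with Best1 as the exception. Cluster 7 was also the highest in both libraries for the tendon and sclera genes Fmod (10.1 and 1.87 UMIs per 10,000), Tnmd (2.23 and 2.30) and Thbs4 (4.004 and 3.39). Scx, the remaining gene of that list, was highest in cluster 7 in B6129PF1/J (0.200) but in Schwann cluster 13 in C57BL/6J (0.0835). The part of sclera cells in the collagen levels of cluster 7 was not tested. With 1 library per strain and clusters that were built from the same genes, single-cell values are given with exact Poisson intervals for counting error and without tests between clusters or strains.

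Collagen genes took 37660 UMIs in B6129PF1/J and 25850 in C57BL/6J, or 0.219% and 0.170% of all UMIs. At least 100 UMIs over both libraries were counted for 29 of the 41 genes. The other 12 together gave 178 and 138 UMIs, and the genes nearest the limit were Col4a6 with 113 and Col26a1 with 122 UMIs above it and Col25a1 with 54 and Col28a1 with 50 below it. Col9a1 and Col17a1 had 3 UMIs each, Col6a6 had 8, Col7a1 had 15, Col22a1 had 22, Col11a2 had 23, Col9a2 had 26, Col20a1 had 31, Col24a1 had 36 and Col19a1 had 45. These rare members are not ranked across clusters.

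Several partner chains lie next to each other in the genome (coordinates in GRCm38). Col4a1 (chromosome 8, 11198423 to 11312826, minus strand) and Col4a2 (chromosome 8, 11312805 to 11449287, plus strand) are transcribed away from each other from starts 21 bases apart. Col4a4 and Col4a3 on chromosome 1 are arranged likewise with starts 72 bases apart, and Col4a6 and Col4a5 on chromosome X with starts 1309 bases apart. Col8a1 (chromosome 16) and Col8a2 (chromosome 4), the chains of collagen VIII, are not linked. Promoter windows from RefSeq (GRCm38.p6, 250 bases before to 50 after the transcription start) were matched for 33 of the 41 genes, in 36 windows. Windows of a divergent pair (Col4a1) and of both collagen VIII chains, which were highest in RPE (Col8a1 and Col8a2), are shown, beside that of Col4a4, a collagen IV chain that was also highest in RPE. Capitals mark a CCAAT box (CCAAT or its complement ATTGG) or a GC box (GGGCGG or its complement CCGCCC).
Col4a1, chr8:11312777-11313076, minus strand: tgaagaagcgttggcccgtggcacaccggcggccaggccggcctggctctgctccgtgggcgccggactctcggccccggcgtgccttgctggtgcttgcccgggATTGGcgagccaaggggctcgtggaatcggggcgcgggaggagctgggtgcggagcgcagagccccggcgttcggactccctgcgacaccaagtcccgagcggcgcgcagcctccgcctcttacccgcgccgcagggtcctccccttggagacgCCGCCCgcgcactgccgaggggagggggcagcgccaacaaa
Col4a4, chr1:82586800-82587099, minus strand: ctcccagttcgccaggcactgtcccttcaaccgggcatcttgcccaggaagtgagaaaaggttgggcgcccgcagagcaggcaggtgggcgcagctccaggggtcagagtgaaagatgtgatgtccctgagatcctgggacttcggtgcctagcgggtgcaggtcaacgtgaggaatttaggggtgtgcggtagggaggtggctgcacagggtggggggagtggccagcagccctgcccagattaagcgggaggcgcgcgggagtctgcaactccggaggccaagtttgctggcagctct
Col8a1, chr16:57754688-57754987, minus strand: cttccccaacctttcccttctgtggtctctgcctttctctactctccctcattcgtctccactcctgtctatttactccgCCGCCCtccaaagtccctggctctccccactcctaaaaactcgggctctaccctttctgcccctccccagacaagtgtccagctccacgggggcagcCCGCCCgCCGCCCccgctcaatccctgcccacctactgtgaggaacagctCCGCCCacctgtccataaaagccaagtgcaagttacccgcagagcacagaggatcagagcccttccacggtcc
Col8a2, chr4:126286544-126286843, plus strand: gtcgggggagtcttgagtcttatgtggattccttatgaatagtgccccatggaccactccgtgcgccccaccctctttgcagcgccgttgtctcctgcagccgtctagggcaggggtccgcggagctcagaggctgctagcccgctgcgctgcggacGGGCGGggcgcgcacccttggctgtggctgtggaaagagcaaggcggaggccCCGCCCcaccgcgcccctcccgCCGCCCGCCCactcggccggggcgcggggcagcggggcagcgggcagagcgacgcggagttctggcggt
Col4a1 held 1 CCAAT box 145 bases before the start and 1 GC box just after it, and 78 bases of its window belong to that of Col4a2 as well. Col8a1 and Col8a2 each held 4 GC boxes and no CCAAT box, of which 2 in Col8a2 overlap, whereas the Col4a4 window held neither. Over all genes matched, a GC box was found in 58.3% of the 36 collagen windows and in 35.7% of all 32851 windows, a CCAAT box in 33.3% and 37.4%, and a TATA box (TATAAA or TTTATA) in 13.9% and 13.6%. Such a match is a run of letters and no measured binding site.

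Collagen RNA was most abundant in stromal cells. All collagen genes together reached 58.1 and 46.0 UMIs per 10,000 in stromal cluster 7, 40.04 and 28.0 in cluster 6, 33.2 and 26.6 in cluster 8 and 30.5 and 28.0 in cluster 5. Schwann cluster 12 followed with 25.9 and 25.2 and RPE with 21.04 and 20.2, so that both stood above every EC cluster (5.99 to 9.32 in B6129PF1/J and 5.71 to 7.17 in C57BL/6J). Hematopoietic cells (2.39 and 2.85) and melanocytes (1.01 and 2.12, from 16 and 26 cells only) were lowest. The 4 stromal clusters held 66.1% of all collagen UMIs in B6129PF1/J and 65.9% in C57BL/6J. These shares depend on how many cells of a class were recovered, and rose to 75.0% and 71.9% with each cell thinned to 1700 UMIs.

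**Figure D1:**
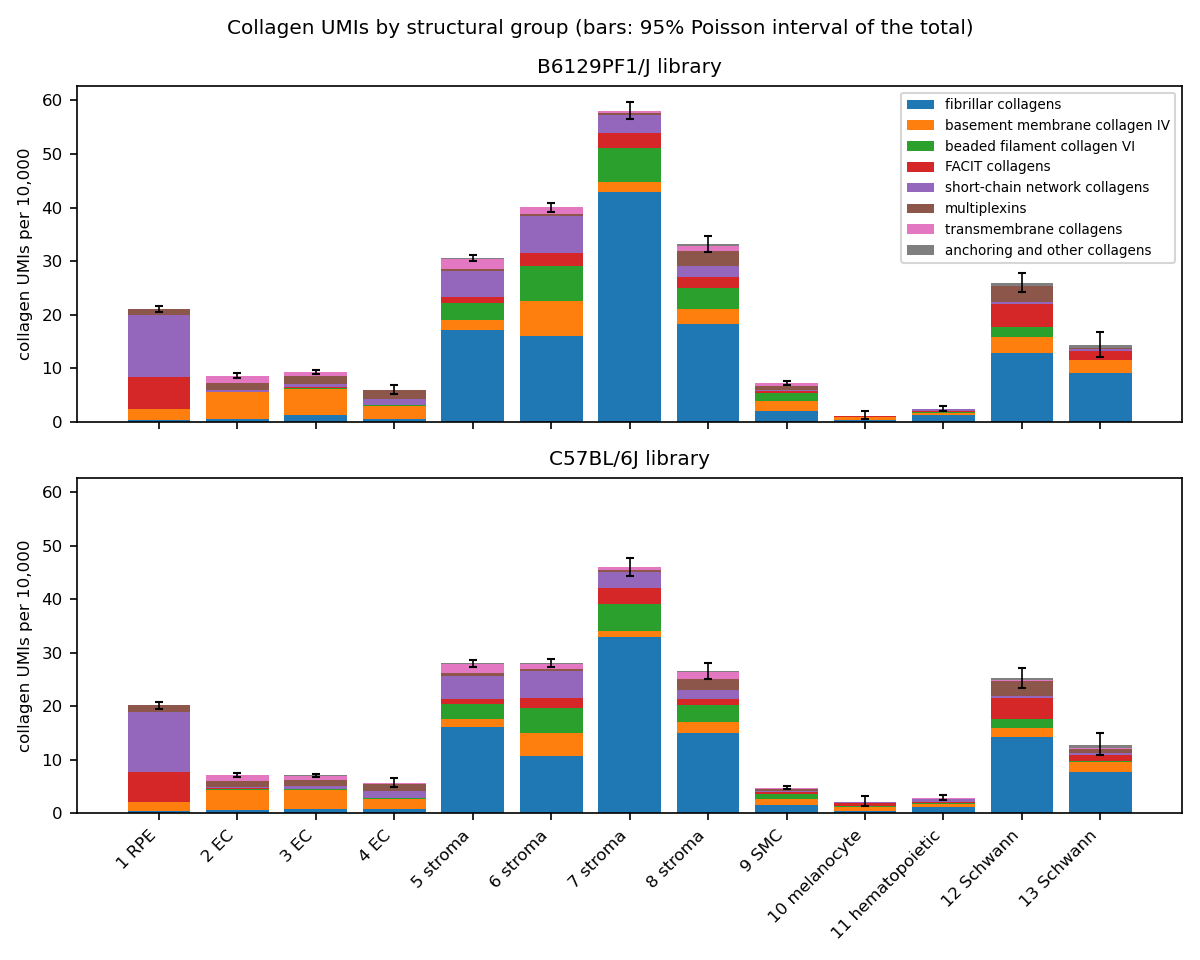
Collagen UMIs per 10,000 UMIs in the 13 cell clusters of the B6129PF1/J and C57BL/6J libraries, stacked by structural group of collagen, with the exact 95% Poisson interval of the total. Cluster 7 is highest in both libraries at 58.1 and 46.0, and the colors show fibrillar collagens in the stromal clusters, collagen IV in ECs and short-chain collagens in RPE.

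The leading chains differed between RPE, EC cluster 2 and stromal cluster 7. In RPE, Col8a1, Col9a3 and Col8a2 together made up 83.6% and 83.1% of the collagen UMIs. In EC cluster 2, Col4a1, Col4a2, Col13a1 and Col15a1 made up 85.2% and 76.7%. In stromal cluster 7, Col1a2, Col1a1 and Col3a1 made up 67.6% and 64.8%. Col1a2 also led in smooth muscle cells, with 14.6% and 14.5% of their collagen UMIs, and in Schwann cluster 12, with 14.9% and 21.7%. Among the 29 genes with at least 100 UMIs, 18 (62.1%) were highest in a stromal cluster in B6129PF1/J and 17 (58.6%) in C57BL/6J, against 18.8% and 20.5% of the 11511 genes ranked in the same way. RPE was the highest for 5 collagen genes in each library, an EC cluster for 2 and 3, and Schwann cluster 12 for 4 in each. The highest cluster was the same in both libraries for 26 of the 29, against 48.2% of all genes ranked.

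**Figure D2:**
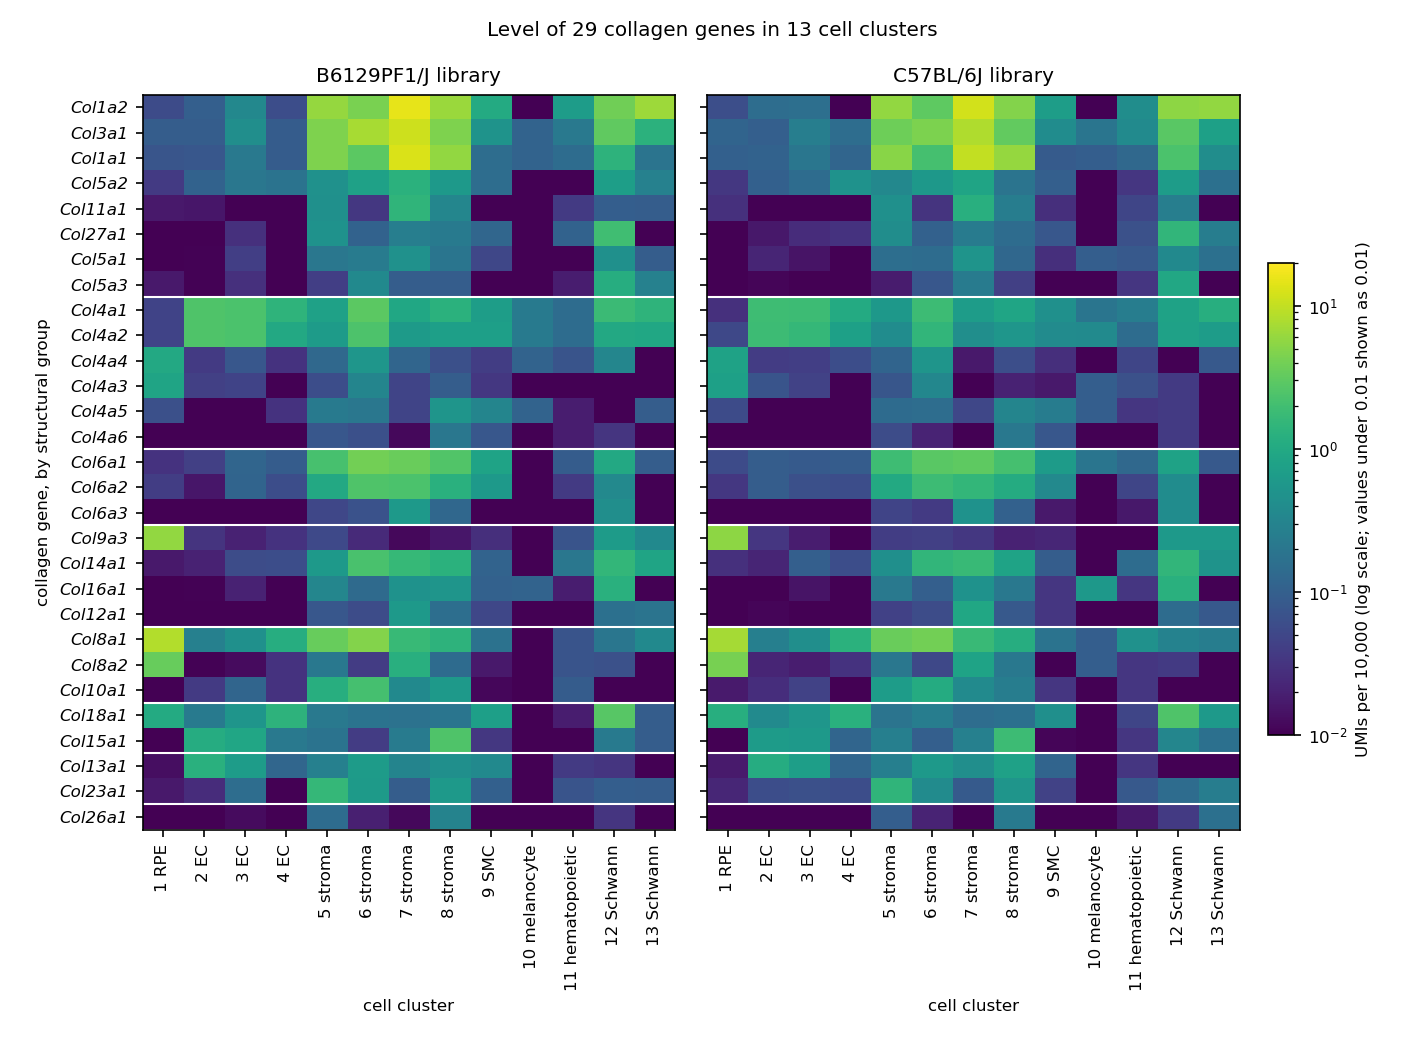
Level of the 29 collagen genes with at least 100 UMIs (rows, by structural group) in 13 cell clusters (columns) of both libraries, as UMIs per 10,000 on a log color scale. Among the fibrillar genes Col1a1, Col1a2 and Col3a1 are brightest in stromal cluster 7 and Col27a1 and Col5a3 in Schwann cluster 12, Col4a1 and Col4a2 in ECs and stromal cluster 6, and Col8a1, Col8a2 and Col9a3 in RPE, with the same pattern in both libraries.

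The fibrillar collagens I and III were the most abundant stromal collagens. Col1a1 (chromosome 11, 94936224 to 94953042, plus strand), which encodes the alpha 1 chain of collagen I, reached 13.1 UMIs per 10,000 (95% interval 12.4 to 13.9) in B6129PF1/J and 9.84 (95% interval 9.05 to 10.7) in C57BL/6J in cluster 7. Col1a2 (chromosome 6, 4504814 to 4541544, plus strand), its alpha 2 chain, reached 15.1 UMIs per 10,000 (95% interval 14.2 to 15.9) in B6129PF1/J and 12.0 (95% interval 11.1 to 12.9) in C57BL/6J in the same cluster. Col3a1 (chromosome 1, 45311538 to 45349706, plus strand), the homotrimer of elastic tissues, stood at 11.1 UMIs per 10,000 (95% interval 10.4 to 11.8) in B6129PF1/J and 7.999 (95% interval 7.29 to 8.76) in C57BL/6J. All 3 were highest in cluster 7, but their order differed elsewhere. In cluster 6 the level of Col3a1 was 7.30 and 4.50 UMIs per 10,000 and that of Col1a1 2.92 and 2.16, which is 2.50 and 2.09 Col3a1 UMIs per Col1a1 UMI. In cluster 8 the same ratio was 0.785 and 0.526, with Col1a1 the more abundant. The stromal clusters held 95.4% and 93.5% of all Col1a1 UMIs and 92.0% and 89.5% of those of Col3a1.

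The minor fibrillar chains, which regulate fibril diameter within collagen I fibrils, were lower and split between stroma and Schwann cells. Col5a2 was highest in cluster 7 with 1.27 and 0.851 UMIs per 10,000, as were Col11a1 with 1.45 and 1.21 and Col5a1 with 0.471 and 0.511. Col5a3, whose chain joins Col5a1 and Col5a2 in a rarer form of collagen V, was instead highest in Schwann cluster 12 with 1.14 and 0.954. Cluster 12 was also the highest for Col27a1, a fibrillar collagen of cartilage, with 1.96 and 1.47 UMIs per 10,000. Beside these minor chains, Schwann cluster 12 held 3.86 and 5.47 UMIs per 10,000 of Col1a2 and 1.37 and 2.31 of Col1a1.

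Col1a2 was found in cell types with little Col1a1. In Schwann cluster 13 Col1a2 stood at 6.51 UMIs per 10,000 (95% interval 5.08 to 8.23) in B6129PF1/J and 5.76 (95% interval 4.48 to 7.29) in C57BL/6J, from 70 and 69 UMIs, and Col1a1 at 0.186 and 0.417, from 2 and 5 UMIs. At least 1 UMI of Col1a2 was counted in 25 of 30 and 32 of 46 cells of that cluster, or 83.3% and 69.6%. In hematopoietic cells the share with a UMI was 9.43% and 9.45% at median depths of 5047.5 and 3977 UMIs per cell, against 2848 and 2161.5 in cluster 13. There were 35.0 (95% interval 9.33 to 295) in B6129PF1/J and 13.8 (95% interval 5.64 to 43.8) in C57BL/6J Col1a2 UMIs per Col1a1 UMI in cluster 13. In smooth muscle cells the ratio was 6.89 (95% interval 4.59 to 10.7) in B6129PF1/J and 7.75 (95% interval 4.59 to 13.98) in C57BL/6J, with Col1a2 at 1.05 and 0.692 UMIs per 10,000. Schwann cluster 12 had 2.81 and 2.37, and the 4 stromal clusters, where both chains are abundant, 1.09 to 1.47 in B6129PF1/J and 0.810 to 1.41 in C57BL/6J. The intervals of clusters 9 and 13 lie above every stromal ratio in both libraries. Hematopoietic cells had 4.63 and 3.13, but of the 37 Col1a2 UMIs of the B6129PF1/J library 14 came from a single cell. In RPE the ratio was 0.773 and 0.611, at Col1a2 levels of 0.0567 and 0.0629 UMIs per 10,000. Col1a2 made up 45.5% and 45.1% of all collagen UMIs of cluster 13.

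**Figure D3:**
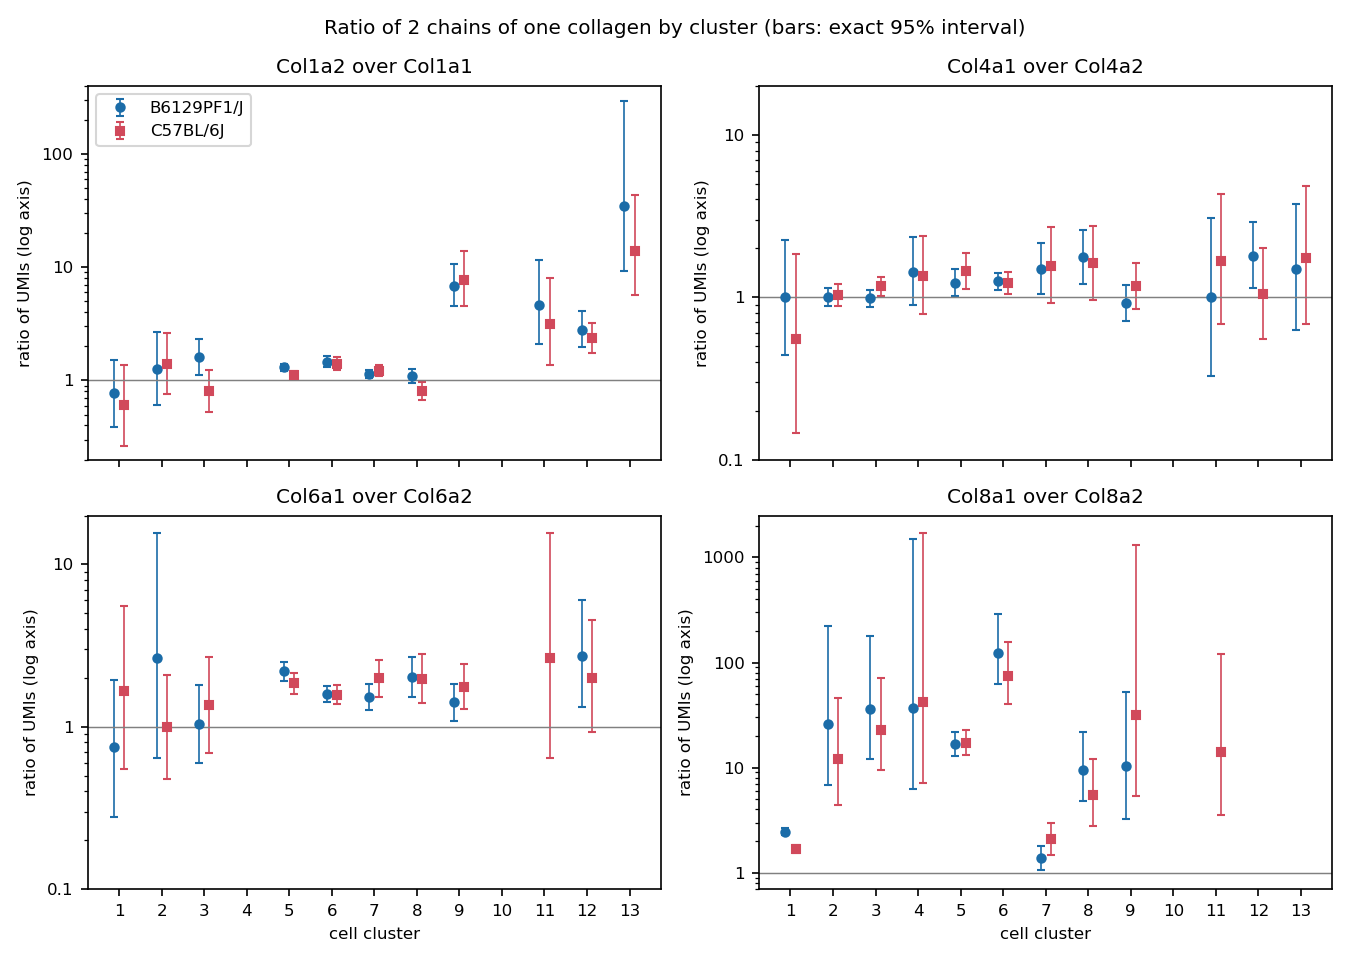
Ratio of the UMIs of partner chains by cell cluster on log axes, with exact 95% intervals, circles for B6129PF1/J and squares for C57BL/6J; ratios with too few UMIs are not drawn. Col1a2 over Col1a1 ranges from 0.810 to 1.47 in stromal clusters 5 to 8 and is 35.0 and 13.8 in Schwann cluster 13, while Col4a1 over Col4a2 stays near 1 in EC cluster 2 at 1.01 and 1.03.

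Collagen IV fell into chain pairs with different cell types. Col4a1 and Col4a2, the chains of the widespread basement membrane network, were highest in ECs and in stromal cluster 6. Col4a1 reached 2.48 and 1.89 UMIs per 10,000 in EC cluster 2, 2.29 and 1.83 in EC cluster 3 and 2.97 and 1.81 in stromal cluster 6. In C57BL/6J the intervals of these 3 clusters overlapped, whereas in B6129PF1/J that of cluster 6 lay above those of clusters 2 and 3. Col4a2 reached 2.46 and 1.84 in cluster 2 and 2.37 and 1.48 in cluster 6. Per UMI of Col4a2 there were 1.01 and 1.03 UMIs of Col4a1 in cluster 2, and the levels of both genes had a Spearman correlation of 0.96 and 0.96 over the 13 clusters of a library. These 13 points share a library and its depths, and the correlation is given as a description.

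The chains of the second network, known from kidney glomeruli and other specialized basement membranes, were highest in RPE. Col4a3 stood at 0.840 UMIs per 10,000 (95% interval 0.740 to 0.951) in B6129PF1/J and 0.744 (95% interval 0.621 to 0.883) in C57BL/6J in RPE and Col4a4 at 0.980 UMIs per 10,000 (95% interval 0.871 to 1.10) in B6129PF1/J and 0.789 (95% interval 0.663 to 0.933) in C57BL/6J. RPE held 68.1% and 51.8% of all Col4a3 UMIs and 57.9% and 45.5% of all Col4a4 UMIs. Stromal cluster 6 was next, with 0.313 and 0.342 UMIs per 10,000 of Col4a3 and 0.539 and 0.526 of Col4a4. The RPE levels of Col4a1 were 0.0467 and 0.0286 and those of Col4a2 0.0467 and 0.0515. Col4a5, which completes the Col4a3 and Col4a4 trimer, was highest in stromal cluster 8 with 0.522 and 0.314, and its RPE level was 0.0634 and 0.0572 UMIs per 10,000. Col4a6 was likewise highest in cluster 8, with 0.206 and 0.209.

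Collagen VI was a stromal collagen, and the amount of Col6a3 per Col6a1 differed between clusters. Col6a1 reached 3.97 and 2.89 UMIs per 10,000 in cluster 6 and 3.53 and 3.01 in cluster 7. Col6a2 reached 2.50 and 1.84 in cluster 6 and 2.33 and 1.51 in cluster 7. The Spearman correlation of the levels of Col6a1 and Col6a2 over 13 clusters was 0.91 and 0.85, and that of Col6a3 and Col6a1 was 0.84 and 0.80. Col6a3, the large chain that joins both in the common trimer, was highest in cluster 7 with 0.601 and 0.477 UMIs per 10,000 and nearly as high in Schwann cluster 12 with 0.425 and 0.403. In cluster 6, where Col6a1 was abundant, Col6a3 was at 0.0685 and 0.0368. The number of Col6a3 UMIs per Col6a1 UMI was 0.0173 and 0.0127 in cluster 6, 0.170 and 0.158 in cluster 7 and 0.433 and 0.50 in cluster 12. These rest on 14 and 7 Col6a3 UMIs in cluster 6 and 51 and 28 in cluster 7. The ratios of cluster 12 rest on 30 and 22 Col6a1 UMIs and fewer of Col6a3.

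Of the FACIT collagens, Col9a3 (chromosome 2, 180597790 to 180622189, plus strand) was an RPE gene. It encodes 1 of the 3 chains of collagen IX, which is known from cartilage and vitreous. Its RPE level was 5.89 UMIs per 10,000 (95% interval 5.62 to 6.17) in B6129PF1/J and 5.46 (95% interval 5.12 to 5.82) in C57BL/6J, and RPE held 96.2% and 94.1% of its UMIs. A UMI of Col9a3 was counted in 87.2% and 78.6% of RPE cells, and in 1.07% and 0.864% of smooth muscle cells, at median depths of 5263 and 3406.5 UMIs against 4635 and 3803. Its partners were nearly undetected, with 3 and 0 UMIs of Col9a1 and 10 and 16 of Col9a2 in the whole libraries. Col14a1, which binds collagen I fibrils, was a stromal gene with 2.24 and 1.49 UMIs per 10,000 in cluster 6 and 1.64 and 1.68 in cluster 7. Col12a1, a FACIT of tendon and other load-bearing tissue, was highest in cluster 7 with 0.601 and 0.919. Col16a1 was highest in Schwann cluster 12, with 1.24 and 1.247.

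The short-chain collagens were spread over RPE and stroma. Col8a1 (chromosome 16, 57624258 to 57754737, minus strand) stood at 8.31 UMIs per 10,000 (95% interval 7.99 to 8.64) in B6129PF1/J and 7.08 (95% interval 6.69 to 7.49) in C57BL/6J in RPE, where it made up 39.5% and 35.1% of the collagen UMIs. It was also abundant in stromal cluster 6, with 4.84 and 3.94, and in cluster 5, with 3.46 and 3.55. Col8a2 (chromosome 4, 126286793 to 126314330, plus strand) stood at 3.39 UMIs per 10,000 (95% interval 3.18 to 3.60) in B6129PF1/J and 4.20 (95% interval 3.91 to 4.52) in C57BL/6J in RPE, which held 83.4% and 84.0% of its UMIs. Both chains of collagen VIII were thus abundant in RPE, whereas stromal cluster 6 had 0.0392 and 0.0526 of Col8a2. Per Col8a2 UMI there were 2.45 and 1.68 Col8a1 UMIs in RPE, 1.38 and 2.08 in cluster 7, 16.6 and 17.2 in cluster 5 and 124 and 74.9 in cluster 6. Cluster 7 was the stromal cluster with the most Col8a2, 1.22 and 0.817 UMIs per 10,000. Col10a1 (chromosome 10, 34389981 to 34397085, plus strand), best known as the collagen of hypertrophic cartilage, was a stromal gene here, with 2.11 and 1.08 UMIs per 10,000 in cluster 6 and 1.17 and 0.672 in cluster 5. Stromal cells held 95.1% and 93.8% of its UMIs. ECs had 0.0367 and 0.0274 in cluster 2 and 0.120 and 0.0445 in cluster 3.

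The multiplexins, collagens of basement membrane zones whose C-terminal fragments include endostatin, differed from each other. Col18a1 was highest in Schwann cluster 12 with 2.75 and 2.46 UMIs per 10,000, followed by EC cluster 4 with 1.34 and 1.24 and RPE with 1.03 and 1.17. Col15a1 was highest in stromal cluster 8 with 2.50 and 1.82 and in EC cluster 2 with 1.12 and 0.657, and RPE had 0 and 1 UMI of it. ECs held 62.9% and 58.0% of the Col15a1 UMIs. In EC cluster 4 the main collagens were Col4a1, Col18a1 and Col8a1, with 23.5% and 17.99%, 22.4% and 21.7% and 18.9% and 22.2% of its collagen UMIs. Among ECs, Col15a1 and Col18a1 thus had opposite orders between clusters 2 and 4, with 0.214 and 0.121 of Col15a1 in cluster 4 and 0.220 and 0.378 of Col18a1 in cluster 2.

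The transmembrane collagens stay in the cell membrane. Col13a1, which is found at cell adhesions, was highest in EC cluster 2 with 1.26 UMIs per 10,000 (95% interval 1.11 to 1.43) in B6129PF1/J and 1.11 (95% interval 0.959 to 1.27) in C57BL/6J, and ECs held 54.1% and 58.8% of its UMIs. It stood at 0.671 and 0.713 in cluster 3 and 0.122 and 0.121 in cluster 4. Col23a1 was a gene of stromal cluster 5, with 1.60 and 1.45 UMIs per 10,000, and 0.627 and 0.389 in cluster 6. Outside this group, Col26a1 was highest in stromal cluster 8, at 0.301 and 0.230. By the correlation of log2 levels (UMIs per 10,000 plus 0.1) over the 13 clusters, averaged over both libraries, the member most like Col3a1 was Col1a1 (0.95) and that most like Col6a3 was Col5a1 (0.87).

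Genes that fold, process and bind collagen were measured as well, with 58 of them in the count tables. Of all 11511 genes ranked, 18.8% in B6129PF1/J and 20.5% in C57BL/6J were highest in a stromal cluster, which is the share to set beside the counts below. Of the genes for folding and secretion with at least 100 UMIs, 8 of 17 in B6129PF1/J and 9 of 17 in C57BL/6J were highest in a stromal cluster. Over the 4 stromal clusters the highest of them were Serpinh1, the collagen chaperone HSP47, with 6.89 and 7.33 UMIs per 10,000, and Ppib, a prolyl isomerase, with 6.89 and 7.10. In RPE Serpinh1 stood at 1.40 and 1.66. Of the procollagen processing and cross-linking genes, 6 of 8 and 5 of 8 were highest in stroma, led by Pcolce, the enhancer of C-propeptide removal (8.06 and 9.24 over the stromal clusters), and the lysyl oxidase gene Loxl1 (1.35 and 1.16). The small proteoglycans that coat fibrils were highest in stroma for 9 of 10 and 8 of 10 genes, with 56.6 and 54.4 of Dcn and 20.3 and 23.1 of Lum. Kera had 0 UMIs in C57BL/6J and is counted there as not highest in stroma. Of the genes for breakdown and uptake 5 of 8 and 6 of 8 were highest in stroma, where Timp3 (18.3 and 13.2) and Timp2 (3.89 and 3.50), inhibitors of metalloproteinases, were the most abundant. Timp3, however, was highest in EC cluster 2 with 59.2 and 49.8. Of the collagen receptors 3 of 5 and 4 of 5 were highest in stroma, and the 2 most abundant there were the integrin chain gene Itgb1 (2.57 and 2.81) and Ddr2 (0.984 and 1.08).

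Most clusters held more collagen RNA in the B6129PF1/J library. Total collagen per 10,000 UMIs was higher in B6129PF1/J than in C57BL/6J in 11 of 13 clusters, with the 95% interval of the ratio above 1 in 8 clusters and below 1 in 0. The ratio was 1.43 (95% interval 1.38 to 1.48) in stromal cluster 6, 1.51 (95% interval 1.38 to 1.64) in smooth muscle cells, 1.32 (95% interval 1.24 to 1.41) in EC cluster 3 and 1.26 (95% interval 1.20 to 1.32) in stromal cluster 7. In cluster 7 some keratocyte and sclera genes differed between the same libraries. Kera stood at 2.81 UMIs per 10,000 in B6129PF1/J and at 0 UMIs in C57BL/6J, which allows up to 0.0511 per 10,000 by the 3-count limit. Fmod stood at 10.1 and 1.87 there, whereas Tnmd stood at 2.23 and 2.30 and Thbs4 at 4.004 and 3.39. The part of such genes in the ratio of cluster 7 was not tested. In RPE the ratio of total collagen was 1.04 (95% interval 1.00 to 1.09), and in Schwann cluster 12 1.03 (95% interval 0.926 to 1.14). Over all genes with at least 20 UMIs in a cluster, the median ratio lay between 0.891 and 1.02 in every cluster. In cluster 6 the median of 19 collagen genes was 1.36, and 17 of the 19 were higher in B6129PF1/J, against 43.1% of 7472 genes. All 13 ratios compare the same 2 libraries, with 1 pool of 2 eyes each, so that strain, animals, library and the make-up of a cluster cannot be told apart, and collagen levels of the clusters are not independent of each other.

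For single genes, 149 pairs of a collagen gene and a cluster had at least 20 UMIs in the higher library. At least 2-fold more in B6129PF1/J was found in 9 pairs (6.04%), against 2.27% of 70994 pairs over all genes, and at least 2-fold more in C57BL/6J in 1 pair, against 2.24%. Of the pairs higher in B6129PF1/J, Col5a3 in stromal cluster 6 had the largest ratio, with 0.367 against 0.0789 UMIs per 10,000, a ratio of 4.65 (95% interval 2.65 to 8.72). Col13a1 in smooth muscle cells had 0.366 against 0.117 UMIs per 10,000, a ratio of 3.13 (95% interval 1.89 to 5.38). Stromal cluster 8 had 3 of the pairs, Col5a2 with a ratio of 3.11, Col16a1 with 2.49 and Col10a1 with 2.39. EC cluster 3 also had 3, Col10a1 with 2.70, Col23a1 with 2.43 and Col1a2 with 2.16. The levels of Col1a2 there were 0.344 and 0.160 UMIs per 10,000, against 4.29 and 3.04 in stromal cluster 6. Col4a1 in Schwann cluster 12 had a ratio of 2.19. The pair higher in C57BL/6J was Col8a1 in hematopoietic cells, with 0.0731 and 0.462 UMIs per 10,000 from 4 and 28 UMIs, a ratio of 0.158.

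Deletion of Ihh from ECs compares tissue with and without the hedgehog ligand that these cells make, a signal to the stroma around them. In single cells Ihh was highest in EC cluster 2 (3.20 and 3.36 UMIs per 10,000), and its target Gli1 was highest in stromal clusters, with 0.277 and 0.292 in cluster 5, 0.206 and 0.174 in cluster 6, 0.342 and 0.357 in cluster 7 and 0.364 and 0.188 in cluster 8. The bulk table gives the authors' mean FPKM per genotype (fragments scaled to transcript length and library size), so that no spread between mice can be given and differences are ratios of means without a test. Means are given for IhhiΔEC/iΔEC first and Ihh+/+ second. Ihh itself stood at 0.454 against 1.53 FPKM. Gli1 stood at 3.15 against 9.40 FPKM and Ptch1 at 4.98 against 7.69 FPKM. Of the 41 collagen genes 39 were read in the bulk tables, and the 2 on chromosome 15, Col14a1 and Col22a1, were not analysed here. At least 1 FPKM in the higher group was reached by 31.

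Several collagens were lower in IhhiΔEC/iΔEC tissue, among them Col10a1, Col1a1, Col1a2 and Col3a1. Of the 31 genes, 19 were lower and 12 higher, near the share of 59.3% lower among all 11403 genes with a ratio. Their median ratio was 0.815, against 0.975 over those 11403 genes. At least 1.5-fold lower were 9 (29.03%), against 2.53% of the 11411 genes with at least 1 FPKM, and at least 1.5-fold higher were 3 (9.68%), against 2.17%. Whether there are fewer cells of a type or less RNA per cell cannot be told apart in such tissue.

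**Figure D4:**
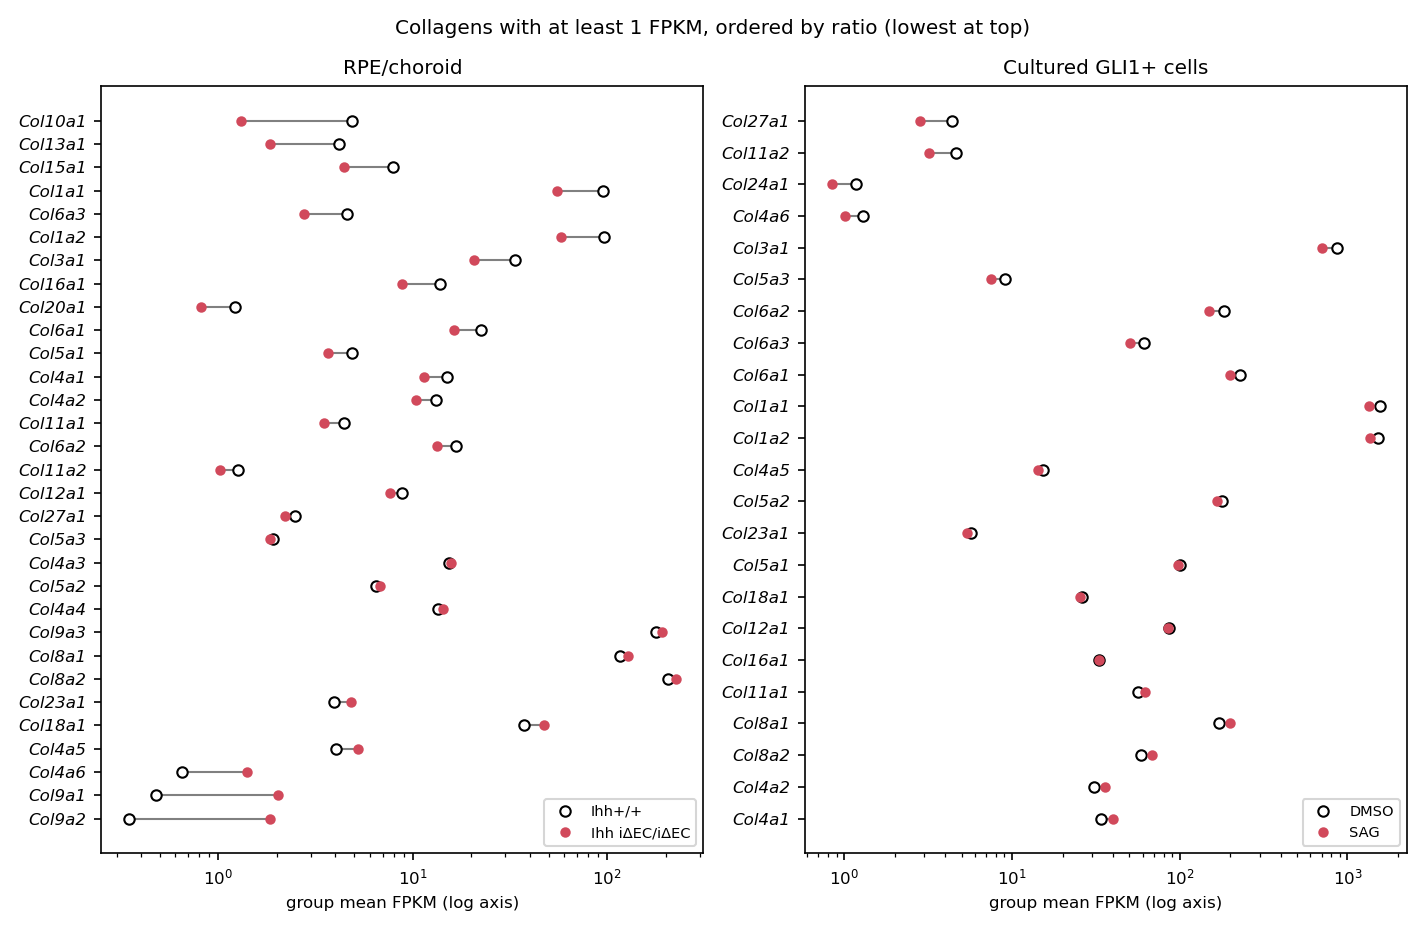
The authors' mean FPKM of each collagen gene with at least 1 FPKM, on a log axis, in RPE/choroid tissue (left, 31 genes) and cultured GLI1+ cells (right, 23 genes), with open circles for Ihh+/+ or DMSO and red circles for IhhiΔEC/iΔEC or SAG, ordered by ratio. In tissue Col10a1 lies farthest below its control, at 1.31 against 4.90 FPKM, and in culture the circles of most genes nearly coincide, as for Col1a1 at 1353 against 1555 FPKM.

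The lowest ratio was that of Col10a1, at 1.31 against 4.90 FPKM, a ratio of 0.266. Next came Col13a1, the EC and stromal transmembrane collagen, at 1.84 against 4.20 FPKM, and Col15a1, the multiplexin of EC cluster 2 and stromal cluster 8, at 4.43 against 7.91 FPKM. The chains of collagens I and III followed. Col1a1 stood at 55.1 against 95.5 FPKM, Col1a2 at 58.0 against 96.0 FPKM and Col3a1 at 20.7 against 33.6 FPKM, with ratios of 0.577, 0.605 and 0.615. The minor fibrillar genes highest in stroma did not pass 1.5-fold, with ratios of 0.753 for Col5a1, 0.789 for Col11a1 and 1.06 for Col5a2. Col6a3 stood at 2.75 against 4.61 FPKM, with a ratio of 0.598, while its partners Col6a1 and Col6a2 had ratios of 0.725 and 0.794. The last 2 of the 9 were FACIT genes, Col16a1 at 8.87 against 13.8 FPKM and Col20a1 at 0.814 against 1.23 FPKM. Col4a1 and Col4a2 had ratios of 0.764 and 0.785.

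The collagens highest in RPE had other ratios. Among them, Col8a1 was shared with stroma. In B6129PF1/J and C57BL/6J, RPE held 49.3% and 36.4% of its UMIs and the stromal clusters 45.8% and 55.5%, so its bulk ratio is not that of RPE alone. Col8a1 (129 against 116 FPKM), Col8a2 (226 against 204 FPKM), Col9a3 (193 against 178 FPKM), Col4a3 (15.7 against 15.5 FPKM) and Col4a4 (14.3 against 13.5 FPKM) all lay between 1.01 and 1.11 times the wild-type mean. Over all genes highest in RPE in both libraries the median ratio was 1.13 (660 genes), and over the 5 collagens 1.08. Over the 1160 genes highest in stroma it was 0.931, with 73.9% lower and 7.76% at least 1.5-fold lower. Over 15 stromal collagens it was 0.753, with 11 lower, which is near that share, and 6 of them at least 1.5-fold.

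**Figure D5:**
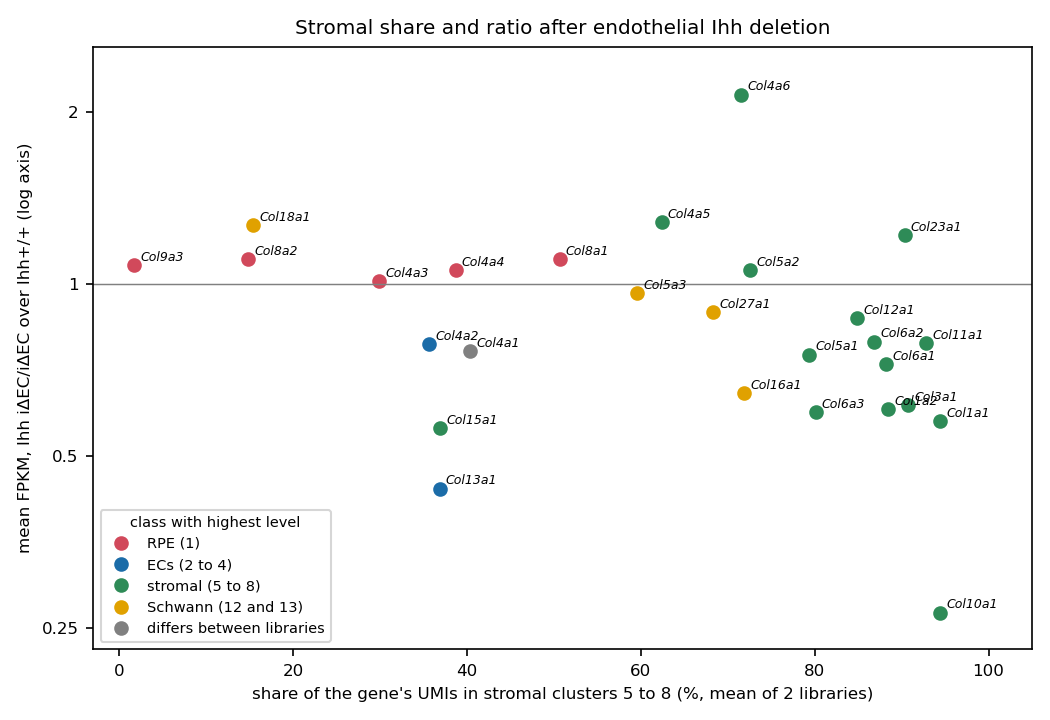
Ratio of the authors' mean FPKM in IhhiΔEC/iΔEC over Ihh+/+ tissue (log axis) against the percent of a collagen gene's UMIs that lay in stromal clusters 5 to 8 (mean of both libraries), 27 genes with both values, colored by the class of highest level. Of the 14 genes with a stromal share above 70%, 11 have a ratio below 1, while the 5 collagens highest in RPE lie between 1.01 and 1.11. Among all genes, 73.9% of the 1160 highest in stroma and 6.67% of the 660 highest in RPE have a ratio below 1.

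Markers of cell types were read in the same table. All 4 stromal markers were lower, with ratios of 0.524 to 0.832 and a summed level of 356 against 540.2 FPKM. The 4 melanocyte markers, all lower, summed to 1276 against 2074 FPKM, and the 5 photoreceptor markers, all lower, to 28.2 against 80.8 FPKM. The 3 tendon and sclera markers measured were all lower (80.0 against 117 FPKM summed), and the 5 RPE markers all higher (10352 against 8576 FPKM summed). The lists of chondrocyte markers, with 2 of 5 lower and Matn1 listed at 0 in both genotypes, and of smooth muscle markers, with 3 of 4 lower, summed to 23.9 against 27.2 FPKM and 51.3 against 57.3 FPKM. The 5 EC markers, all lower, summed to 72.7 against 85.0 FPKM, and the 4 skeletal muscle markers, all higher, to 286 against 215 FPKM. Of the 4 hematopoietic and 4 Schwann cell markers measured, 2 were lower in each list, with summed levels of 117 against 109 FPKM and 32.6 against 32.9 FPKM. The part of cell composition in the collagen ratios was not tested.

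The 3 collagens that were at least 1.5-fold higher were low and rare in the single-cell libraries. Col9a2 stood at 1.84 against 0.346 FPKM and Col9a1 at 2.02 against 0.478 FPKM, the partner chains of the RPE gene Col9a3, and Col4a6 at 1.40 against 0.652 FPKM. Below 1 FPKM, Col17a1, the collagen of epithelial hemidesmosomes, stood at 0.472 against 0.0710 FPKM, and Col26a1 at 0.152 against 0.554 FPKM. Genes of the corneal and ciliary epithelium were higher in the same group means. Krt14 stood at 4.28 against 0.00667 FPKM and Krt12, a keratin of corneal epithelium, at 16.4 against 0.861 FPKM. Of the ciliary epithelium genes, chosen after the values had been seen, all 6 were higher, with 22.2 against 1.78 FPKM summed, and of 4 further keratins chosen likewise all 4, with 47.3 against 0.708 FPKM. The 3 lens markers were higher as well, with 1.07 against 0.122 FPKM summed and 1 of them listed at 0 in 1 genotype. The part of such tissue in the values of Col9a1, Col9a2, Col4a6 and Col17a1 was not tested.

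Of the genes that fold, process, bind or degrade collagen, 3 passed the limit of 1.5-fold. Over all genes 59.3% were lower, 2.53% were at least 1.5-fold lower and 2.17% at least 1.5-fold higher. At such shares a short list with none past the limit is not set apart from other genes. None of 15 folding and secretion genes with at least 1 FPKM passed it in either direction, with 13 lower and a median ratio of 0.884, and none of 9 processing and cross-linking genes, with 5 lower and a median of 0.888. All 9 small proteoglycans were lower, with a median of 0.770, and 2 passed 1.5-fold, Lum at 38.7 against 74.0 FPKM and Aspn at 3.78 against 5.74 FPKM. Of 9 breakdown and uptake genes 1 passed, the metalloproteinase gene Mmp3 at 10.4 against 20.3 FPKM. None of 5 collagen receptors passed.

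SAG treatment of cultured GLI1+ cells asked the converse, with the hedgehog pathway switched on in the stromal cells themselves. Gli1 stood at 3.65 against 0.0280 FPKM and Ptch1 at 10.1 against 1.13 FPKM in SAG against DMSO. Of 23 collagens with at least 1 FPKM, 1 was at least 1.5-fold lower (4.35%, against 2.45% of 10325 genes) and 0 were higher (against 1.38%). The lower gene was Col27a1, at 2.81 against 4.40 FPKM. Of the 23, 17 had ratios below 1, against 32.1% of all genes, with a median of 0.929 against 1.04 over all genes. Col1a1 stood at 1353 against 1555 FPKM, Col1a2 at 1362 against 1522 FPKM, Col3a1 at 704 against 865 FPKM and Col6a1 at 199.7 against 229.8 FPKM. The collagens with ratios above 1 included both chains of collagen VIII, with 198 against 171 FPKM for Col8a1 and 68.0 against 58.4 FPKM for Col8a2, and both widespread chains of collagen IV, with 39.7 against 33.8 FPKM for Col4a1 and 36.0 against 30.8 FPKM for Col4a2. Only group means were read, and the authors' own comparisons were not used. Whether these shifts exceed the spread between cultures was not tested. Of the folding, processing, proteoglycan, breakdown and receptor genes, Timp3 alone passed 1.5-fold, at 269.6 against 154 FPKM.

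The collagens that were lowest after Ihh deletion were under 1 FPKM in these cultures, so that their response to SAG could not be read. Col10a1 had 4.90 FPKM in wild-type tissue and 0.0910 in DMSO cultures. Col13a1 had 4.20 FPKM in wild-type tissue and 0.0470 in DMSO cultures, and Col15a1 had 7.91 FPKM in wild-type tissue and 0.151 in DMSO cultures. The tables were normalized separately and differ in strain and tissue, and the values are set side by side only. The 3 most abundant collagens per length were Col8a2, Col9a3 and Col8a1 in wild-type tissue and Col1a1, Col1a2 and Col3a1 in culture. Col9a3 had 178 FPKM in wild-type tissue and 0.396 in DMSO cultures, and Col8a1 had 116 FPKM in wild-type tissue and 171 in DMSO cultures.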

How the data were processed

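Single cells of RPE/choroid were captured on the 10x Genomics Chromium platform, and the authors aligned the reads to mm10 and counted UMIs with Cell Ranger. The deposited count tables hold raw UMI counts per gene and cell, 1 library per strain, and a deposited annotation gives each cell's UMI count, its fraction of mitochondrial UMIs (at most 0.0998 in the files) and its cluster number from Seurat 2.1. For bulk RNA-seq the authors aligned reads with STAR 2.4.0f1 and computed FPKM with Cufflinks 2.0.2, and the deposited tables hold the mean FPKM of a group only. These tables also carry the authors' own comparisons (fold changes and p-values), and further files carry cluster averages, and neither were used.

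Here UMIs were summed per cluster and scaled to 10,000 UMIs of all genes in Python 3.11.15 with numpy 2.4.6, scipy 1.17.1 and pandas 2.3.3. Intervals (95%) are exact Poisson for levels, exact Clopper-Pearson for shares of cells and exact conditional for ratios of counts, and cover counting error only. UMIs are not affected by PCR copies, but intervals ignore the spread between mice. Doublets were not called, and cells with at least 1 UMI of 2 or more defining markers of another class were left out as an alternative. FPKM ratios used no pseudocount, a gene needed 1 FPKM in either group, and 1.5-fold was the limit. The fold calls between libraries and the Poisson intervals were tested on simulated counts, and the other steps were not. Collagens with at least 100 UMIs over both libraries were named with their levels and the rest with their UMIs. In bulk, all collagens past 1.5-fold were named, and of the other lists (folding and secretion, processing and cross-linking, small proteoglycans, breakdown and uptake, receptors, cell type markers) the 2 highest in stroma and those past 1.5-fold. The members, the lists and the limits were chosen with earlier results of these data known. The alternatives were other minimums, folds, pseudocounts and scalings, thinning of cells to 1700 UMIs and means over cells. Depth per bulk library is unknown, since means of FPKM carry no counts.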

Additional observations from a re-analysis of the deposited data

Results flagged for a closer look

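Collagens also appear in the table of ECs sorted from whole tissues, which lies outside the comparisons above. It holds the authors' mean FPKM of 99 genes that they chose as enriched in choroidal ECs, so that being high in choroid is how its genes were chosen, and 3 collagens are among them. Col8a1 stood at 22.7 FPKM in choroidal ECs, against 2.34 in neural retina, 1.29 in lung, 0.075 in liver and 3.88 in heart. Col10a1 stood at 15.2 FPKM, against 0.067 in neural retina, 0.003 in liver and listed values of 0 in lung and heart. Col8a2 stood at 5.16 FPKM, against 0.137, 0.135, 0.025 and 0.018 in neural retina, lung, liver and heart. In the single cells Col8a2 was highest in RPE and Col10a1 in stromal clusters 6 and 5, with 0.0367 and 0.0274 UMIs per 10,000 of Col10a1 in EC cluster 2. The same table lists the RPE genes Rpe65 at 21.8 and Rgr at 50.9 FPKM in choroidal ECs, the melanocyte gene Pmel at 18.8 and the tendon and sclera gene Thbs4 at 4.25, with at most 0.979, 1.86, 0.435 and 0.084 in the other organs. The part of cells other than ECs in these collagen values was not tested. The choroidal EC libraries behind that column are not among the samples used here.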

How the results depend on the processing

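The stromal share of collagen UMIs was 66.1% and 65.9%, and rose to 75.0% and 71.9% with cells thinned to 1700 UMIs. Without cells that held markers of another class it was 80.2% and 75.2%. That step removed 38.0% and 27.8% of all cells and 79.4% and 62.6% of RPE cells. The melanocyte marker Dct stood at 13.4 and 12.3 UMIs per 10,000 in RPE, so that step cannot tell doublets from RPE cells with such RNA of their own. The counts of collagens highest in stroma and of those with the same highest cluster stayed within 1.5 times under every alternative run. Of the strain pairs, 9 were 2-fold higher in B6129PF1/J, with 33 at 1.5-fold, 3 at 3-fold, 17 at a minimum of 10 UMIs and 4 at a minimum of 50, while 1 was higher in C57BL/6J, with 8 at 1.5-fold, 7 at a minimum of 10 UMIs and 0 at a minimum of 50. After Ihh deletion 9 collagens were lower, with 5 among genes of at least 5 FPKM, 15 at a lower fold limit and 2 at 2-fold, and 3 were higher, with 0 of at least 5 FPKM and 5 at the lower fold limit. After SAG 1 was lower, with 0 at a pseudocount of 1 FPKM, 3 without a minimum, 0 of at least 5 FPKM, 4 at the lower fold limit, 0 at 2-fold and 2 with median-of-ratios scaling, and 0 were higher, with 1 without a minimum. Other folds, minimums and left-out cells change which genes or cells are counted, and the cause of the other shifts was not tested. No paired analysis was possible because the bulk tables hold group means only, and leaving out single libraries was not run for the same reason. In 16 and 26 melanocytes, 0 UMIs allow levels of up to 0.338 and 0.289 per 10,000.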
